A study of Mus musculus with 9 samples.

Results

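The immediate early genes described here are 10 genes that mammalian cells transcribe within minutes of a stimulus, without first making new protein. They were taken as a list of symbols (Fos, Fosb, Jun, Junb, Egr1, Egr2, Atf3, Ier2, Dusp1 and Zfp36), and every probe whose accession maps to one of them was used. All 10 were found, among 15346 named genes that passed the filter on dim probes, and each had a probe well above background on all 9 arrays. Junb and Zfp36 had 2 probes each, and the other 8 genes had 1.

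The arrays measured total RNA of normal colonic mucosa of ICR mice with Agilent 1-colour mouse arrays. In the butyrate group with tumors (3 samples) and the butyrate group without tumors (3 samples), mice drank water with 1.5% butyrate, and in the DMH group (3 samples) they drank plain water. Mice of all 3 groups, the DMH group included, received 1,2-dimethylhydrazine (DMH), a colon carcinogen, under the skin at 20 mg/kg each week for 20 weeks, so no array shows colon without carcinogen. The titles, descriptions and source names give the tumor status used here, while a separate tumor status field says the opposite for all 6 butyrate samples: were that field right, every sign between the butyrate groups would turn. No tumor status other than control is given for the DMH samples. The labels number the samples as replicates without saying that each is a separate mouse, so p-values measure the spread between these samples, which may be technical.

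Immediate early genes are switched on by signals that reach transcription factors already present in the cell. Growth factors act through the RAS, RAF and MAP kinase cascade on the serum response factor, which binds the CArG box, and cyclic AMP and calcium act on CREB, which binds the cyclic AMP response element (CRE). Fos and Jun proteins pair to form AP-1, the EGR proteins bind GC-rich DNA, and Dusp1 and Zfp36 end the response by dephosphorylating MAP kinases and by marking short-lived mRNAs for decay. In the colon these genes answer to growth factors, luminal contents and injury, and they are also known to be induced while tissue is being removed. Butyrate, a short-chain fatty acid that gut bacteria make from fibre, is an inhibitor of histone deacetylases and the main fuel of colonocytes.

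The stretches before the start of 4 members are shown because they hold the CREB element that several members have in common. RefSeq promoter windows (build GRCm38.p6) were at hand for 8 of the 10 genes, and each was read over the 250 bases before the start, 5′ to 3′ on the gene's strand. Capitals mark the CRE core TGACG on either strand, with the opposite strand's copy reading CGTCA, and the full CRE is TGACGTCA. The Fosb window reaches 73 bases into the annotated span of the gene, and only the 30 bases around its core are shown. All of these 30 bases, the core included, lie inside that span. They lie at chr7:19310088-19310117 on the minus strand, the Dusp1 window at chr17:26508473-26508722 on the minus strand, the Atf3 window at chr1:191183334-191183583 on the minus strand and the Fos window at chr12:85473640-85473889 on the plus strand.
Fosb: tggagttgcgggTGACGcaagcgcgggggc
Dusp1: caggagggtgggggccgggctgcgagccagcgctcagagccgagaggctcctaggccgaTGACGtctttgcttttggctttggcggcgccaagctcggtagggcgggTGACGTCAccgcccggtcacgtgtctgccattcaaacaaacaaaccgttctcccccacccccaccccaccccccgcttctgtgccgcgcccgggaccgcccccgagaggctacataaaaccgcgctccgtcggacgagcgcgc
Atf3: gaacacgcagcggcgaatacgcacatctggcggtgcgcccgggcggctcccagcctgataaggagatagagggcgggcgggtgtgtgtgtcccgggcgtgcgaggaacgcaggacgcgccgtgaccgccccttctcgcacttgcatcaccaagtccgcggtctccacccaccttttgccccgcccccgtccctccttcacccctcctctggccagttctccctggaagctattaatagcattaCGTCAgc
Fos: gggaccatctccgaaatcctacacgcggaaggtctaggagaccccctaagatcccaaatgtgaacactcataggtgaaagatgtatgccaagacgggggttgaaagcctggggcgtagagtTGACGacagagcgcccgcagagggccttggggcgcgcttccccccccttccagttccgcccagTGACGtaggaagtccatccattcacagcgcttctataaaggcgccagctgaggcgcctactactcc

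The CRE core, searched on both strands, stood in the windows of 6 of the 8 genes, namely Fos, Fosb, Junb, Egr2, Atf3 and Dusp1, against 17.8% of all 32851 windows of that length. Dusp1 alone among them held the full CRE, 143 to 136 bases before its start and overlapping 2 of its 3 cores; 1.55% of all windows hold it. Fos held a core 66 to 62 bases before its start and a TATA box (TATAAA, searched on the gene's strand only) 33 to 28 bases before it, and 7.59% of windows have such a TATA box. A CArG box, searched on both strands, stood in the windows of Egr2 and Zfp36, and 1.47% of all windows have one. The AP-1 site TGANTCA was in none of the 8 windows, against 6.75% of all. The 5 windows of Egr2 all lie inside its annotated span, and so does the core of Fosb in the span of that gene. The counts are of genes with a match in any window, and Egr2 had 5 windows, while the shares are per window. Matches are of letters and not measured binding.

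Each value below is the log2 signal of a probe minus the log2 of the 75th percentile of its array, so it is a level relative to the other probes of that array and is compared only between arrays for the same probe. That percentile lay between 188 and 880 signal units, lowest on the first array with tumors, and the share of spots well above background ran from 57.8% to 72.5%. Slides are not balanced: the 3 arrays without tumors and the first array with tumors shared slide 1, the other 2 with tumors lay on slide 2, and the DMH arrays lay on slides 3 and 4. Butyrate arrays were scanned on 1 day and DMH arrays on another, so scan day and butyrate cannot be told apart. A gene is called where the Benjamini-Hochberg adjusted p of limma, over all 21964 features, is under 0.05.

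Fosb rose with butyrate, whichever butyrate group was set against DMH. Of the 10 genes it was the only one called over all 6 butyrate arrays, where 9.20% of all features were called, 5.85% higher and 3.35% lower. In butyrate with tumors 1 of 10 was called (Fosb), against 5.70% of all features, 3.44% higher and 2.26% lower, and in butyrate without tumors 2 of 10 were called (Fosb and Dusp1), against 30.5% of all features, 16.6% higher and 13.8% lower. Each of these counts is within about 1 gene of what the share of all features would give for 10 genes. The median log2 fold change of the 10 genes was 0.31 over all butyrate arrays, 0.19 with tumors and 0.47 without tumors, against 0.08, 0.08 and 0.08 over all features.

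Groups that did not overlap were more frequent than calls, among the 10 genes and among all features. Fosb, Egr1 and Egr2 were higher on all 6 butyrate arrays than on any DMH array, and Atf3 was lower, which is 3 and 1 of 10 against 14.5% and 11.9% of all features (26.3% in either direction). With tumors Fos joined the 3 higher genes, 4 and 1 of 10 against 23.1% and 19.5% (42.6% in either direction). Without tumors Ier2 and Dusp1 joined them, 5 and 1 of 10 against 32.8% and 27.2% (60.0% in either direction).

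Directions depend on the scaling, which raises the butyrate arrays relative to the DMH arrays. Without it 7 of the 10 genes (all but Fosb, Egr2 and Atf3) had a negative difference over all butyrate arrays where it is positive with scaling, and no gene was called (limma), with 1 gene at an unadjusted p under 0.05. The median log2 fold change of all features was then -0.76 over all butyrate arrays, -0.53 with tumors and -1.004 without tumors, and 0.48 between the butyrate groups. Relative to these medians Fosb was higher by 1.20 over all butyrate arrays, and Dusp1 by 1.09 without tumors. All 10 genes then kept the sign they have with scaling, when that is also taken relative to the median of all features, in each of the 4 comparisons. This was fixed in advance, because scaling subtracts the same value from all features of an array. It is therefore no test of the directions. Unscaled, the adjusted p of Fosb over all butyrate arrays was 0.591 and that of Dusp1 without tumors 0.93.

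**Figure D1:**
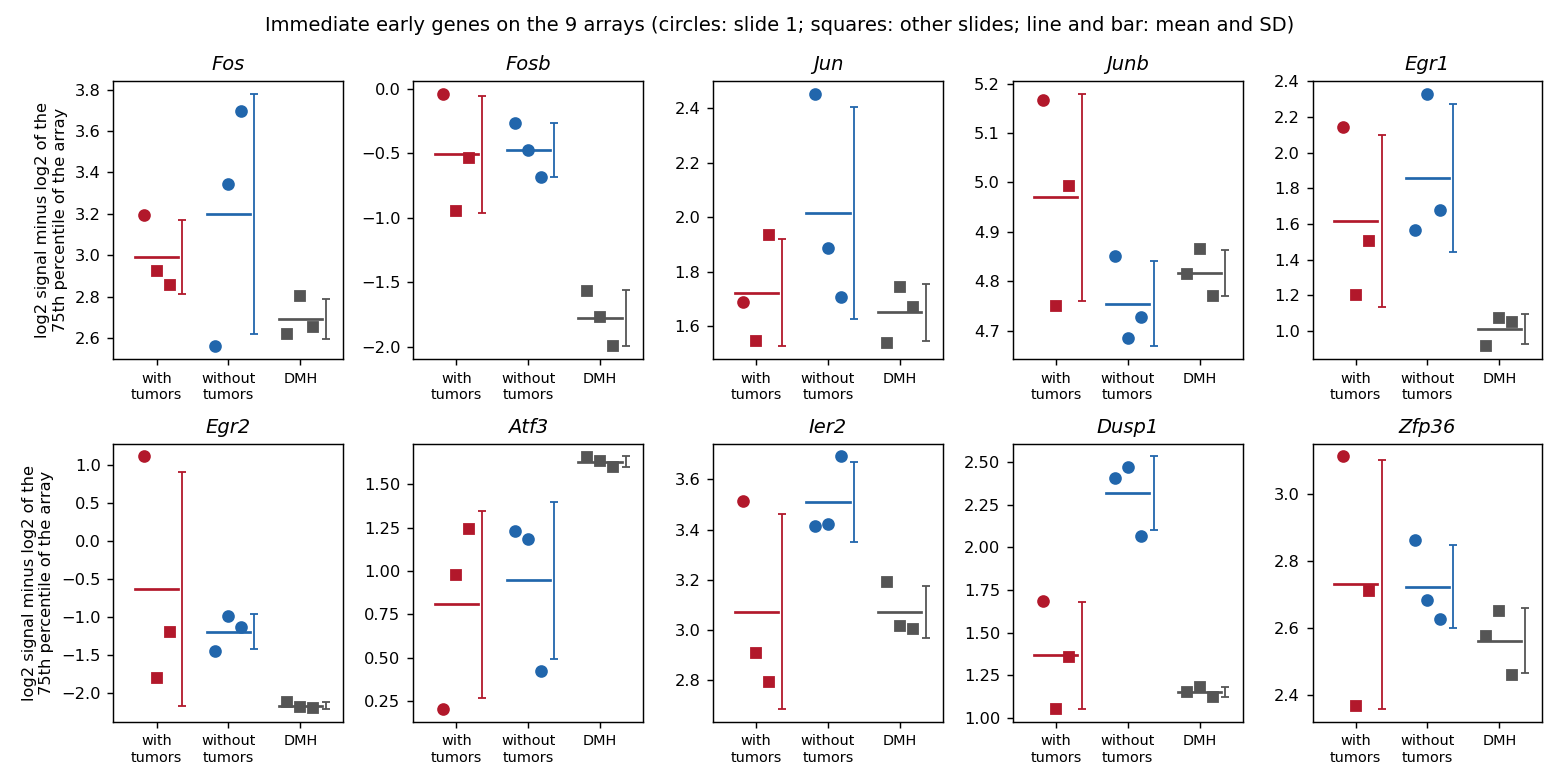
Each panel plots 1 immediate early gene on the 9 arrays, as log2 signal minus the log2 of the array's 75th percentile, with groups along the horizontal axis, circles for arrays of slide 1, squares for other slides, and lines and bars for the mean and SD of 3 arrays. Fosb, Egr1 and Egr2 lie above and Atf3 below the DMH arrays on all 6 butyrate arrays, and Dusp1 is highest on the 3 arrays without tumors; vertical scales differ between panels.

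Fosb, an AP-1 subunit, pairs with Jun proteins and in neurons is known for a truncated, long-lived form. Its values were -0.04, -0.95 and -0.54 with tumors, -0.27, -0.48 and -0.69 without tumors, and -1.56, -1.77 and -1.997 on the DMH arrays. The 6 butyrate arrays thus lay above all 3 DMH arrays, with the smallest gap between the second array with tumors and the first DMH array. Fosb averaged -0.49 ± 0.32 over the butyrate arrays (SD, n = 6) and -1.78 ± 0.22 over the DMH arrays (SD, n = 3). The difference was 1.28 ± 0.22 on the log2 scale (SE; 95% interval 0.79 to 1.78), a fold of 2.44 with an adjusted p of 0.0228 (limma).

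The rise of Fosb was of similar size in both butyrate groups. It was 1.27 ± 0.25 with tumors (SE, log2; adjusted p = 0.0371) and 1.30 ± 0.25 without tumors (SE, log2; adjusted p = 0.00869), both against the same 3 DMH arrays (limma). Between the butyrate groups the log2 difference was -0.03 (95% interval -0.61 to 0.54). On slide 2 and the DMH slides alone, that is with 2 arrays with tumors against 3 DMH arrays, it was 1.03 ± 0.20 (SE, log2; adjusted p = 0.0444, limma). With slide as a random block the adjusted p was 0.108 for all butyrate arrays, 0.139 with tumors and 0.0903 without tumors. Of all 21964 features 17, 4 and 1006 were called there, against 2020, 1252 and 6694 without the block. The call over all butyrate arrays also ended on leaving out any 1 of the 3 DMH arrays, with adjusted p of 0.0543 without the first, 0.116 without the second and 0.126 without the third, while the log2 difference stayed between 1.17 and 1.39. Most calls of other features ended too, as 210, 7 and 8 of all features were then called, against 2020 with all arrays. With tumors the call ended without the first (adjusted p = 0.059), second (0.132) or the third (0.142) DMH array, without the third array with tumors (0.0718), and without the second (0.0634) or the third (0.0525) array without tumors, which enter through the shared spread. Over all features 487, 4, 4, 53, 317 and 443 were called there, in that order, against 1252 with all arrays.

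Fos, the founding AP-1 subunit and the classical marker of recent stimulation, was not called in any comparison. It read 3.19, 2.92 and 2.86 with tumors, 2.56, 3.34 and 3.69 without tumors, and 2.62, 2.80 and 2.65 on the DMH arrays. The lowest and the highest of the 9 values were thus both from the group without tumors. The 10 spots of its probe on each array had an SD of 0.02 to 0.07, which covers spots within an array only, and the SD between those 3 arrays was 0.58 (n = 3). Its difference over all butyrate arrays was 0.40 ± 0.25 (SE, log2; 95% interval -0.15 to 0.95; adjusted p = 0.288, limma). Without the first array of the group without tumors, the difference of that group from DMH was 0.83 ± 0.19 (SE, log2) and was called (adjusted p = 0.0256, limma).

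Jun, the partner that Fos proteins need to bind DNA, was also uncalled throughout. Its values ran from 1.55 to 1.94 with tumors, from 1.71 to 2.45 without tumors and from 1.54 to 1.74 on the DMH arrays, so all groups overlapped. The difference over all butyrate arrays was 0.22 ± 0.21 (SE, log2; 95% interval -0.26 to 0.69; adjusted p = 0.504, limma).

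Junb, a Jun protein that often restrains the activity of Jun, gave different answers from its 2 probes. The brighter probe, used for the gene, read 5.17, 4.75 and 4.99 with tumors, 4.85, 4.68 and 4.73 without tumors, and 4.81, 4.86 and 4.77 on the DMH arrays. It showed no order among the groups, with a difference over all butyrate arrays of 0.05 ± 0.16 (SE, log2; adjusted p = 0.867, limma). The dimmer probe read 5.73, 4.60 and 4.83 with tumors, 5.15, 5.18 and 5.40 without tumors, and 4.03, 4.30 and 4.07 on the DMH arrays. By this probe every butyrate array lay above every DMH array. With it in place of the brighter one, an alternative chosen after the values were seen, the difference was 1.02 ± 0.25 over all butyrate arrays (SE, log2; adjusted p = 0.0387), 0.92 ± 0.28 with tumors (adjusted p = 0.0792) and 1.11 ± 0.28 without tumors (adjusted p = 0.0205), by limma. No direction is therefore given for Junb.

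**Figure D2:**
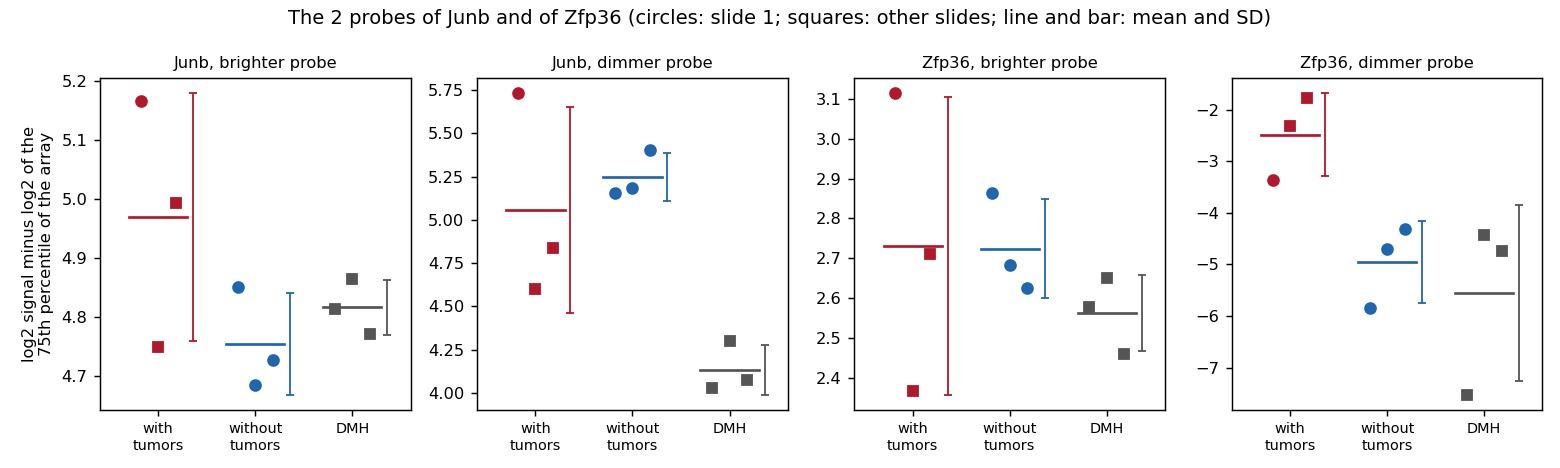
The brighter and the dimmer probe of Junb and of Zfp36 on the 9 arrays, as log2 signal minus the log2 of the array's 75th percentile, with groups along the horizontal axis and lines and bars for the mean and SD of 3 arrays. The dimmer Junb probe puts all butyrate arrays (4.60 to 5.73) above all DMH arrays (4.03 to 4.30), which the brighter one does not; vertical scales differ between panels.

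Egr1 and Egr2 encode zinc finger factors induced through the serum response factor. Egr1 read 2.14, 1.20 and 1.50 with tumors, 1.57, 2.33 and 1.68 without tumors, and 0.91, 1.07 and 1.05 on the DMH arrays. All 6 butyrate arrays were above the DMH arrays, as 14.5% of all features were in that comparison. Egr1 nevertheless missed the threshold, with a difference of 0.73 ± 0.25 over all butyrate arrays (SE, log2; 95% interval 0.16 to 1.30; adjusted p = 0.0927, limma). It was 0.60 ± 0.28 with tumors (SE, log2; adjusted p = 0.192) and 0.85 ± 0.28 without tumors (SE, log2; adjusted p = 0.0534), by limma. The result without tumors passed under 7 of 23 other settings. Among these were normexp background correction together with quantile scaling (adjusted p = 0.0361, limma) and the authors' deposited values (adjusted p = 0.0427, limma). It stayed uncalled in 15, among them slide as a random block (adjusted p = 0.326, limma), and turned to -0.23 (log2) without scaling. In the authors' values the median log2 fold change of all features was 0.26 in this comparison, against 0.08 in the settings of the report. Relative to that median Egr1 was higher by 0.71, against 0.77 in the settings of the report.

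Egr2, which also guides myelin-forming Schwann cells, had the widest range of the 10 genes. Its values were 1.12, -1.80 and -1.20 with tumors, -1.45, -0.99 and -1.13 without tumors, and -2.11, -2.18 and -2.20 on the DMH arrays. The first array with tumors stood 2.11 above the next highest array, and all butyrate arrays lay above the DMH arrays. Its probe was spotted 10 times on each array, with a spot SD of 0.06 to 0.10, so that 1 value did not come from a single spot. The difference over all butyrate arrays was 1.26 ± 0.54 (SE, log2; 95% interval 0.04 to 2.48; adjusted p = 0.151, limma). Without the first array with tumors it was smaller and passed the threshold, at 0.85 ± 0.20 (SE, log2; adjusted p = 0.0453, limma). Leaving that array out also turned the sign between the butyrate groups, where the log2 difference was 0.56 with it and -0.31 without it, uncalled both times. With slide as a fixed block that difference was 2.31 ± 0.33 and was called (SE, log2; adjusted p = 0.0477, limma). Slide 1 alone held both butyrate groups, and the first array with tumors was its only one with tumors, so this estimate rests on that single array. Within slide 1 the log2 difference was likewise 2.31.

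Atf3, a stress-induced factor of the ATF/CREB family that mostly represses transcription, ran the other way. It read 0.20, 0.98 and 1.24 with tumors, 1.23, 1.19 and 0.42 without tumors, and 1.66, 1.64 and 1.60 on the DMH arrays. All 6 butyrate arrays were below the DMH arrays, as were 11.9% of all features. The 3 DMH values lay within 0.06 of each other, and the lowest values were those of the first array with tumors and the third without tumors. Its difference over all butyrate arrays was -0.76 ± 0.27 (SE, log2; 95% interval -1.35 to -0.16; adjusted p = 0.0938, limma), and it was not called. The differences by group were -0.82 ± 0.31 with tumors (SE, log2; adjusted p = 0.122) and -0.69 ± 0.31 without tumors (SE, log2; adjusted p = 0.121), by limma.

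Ier2, a nuclear protein induced early by growth factors, separated by slide more than by group. It read 3.52, 2.91 and 2.79 with tumors, 3.41, 3.42 and 3.69 without tumors, and 3.19, 3.02 and 3.00 on the DMH arrays. The 4 arrays of slide 1 were thus above all DMH arrays and the 2 of slide 2 below them. Ier2 differed by 0.00 ± 0.21 with tumors (SE, log2; adjusted p = 0.996) and by 0.44 ± 0.21 without tumors (SE, log2; adjusted p = 0.147), by limma. Egr1, Ier2 and Dusp1 were higher on each of the 4 arrays of slide 1 than on each of the other 5 arrays, which is 3 of the 10 genes against 14.5% of all features.

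Dusp1 and Zfp36 belong to the feedback that ends the response. Dusp1, a nuclear phosphatase of p38, JNK and ERK, read 1.68, 1.06 and 1.36 with tumors, 2.41, 2.47 and 2.07 without tumors, and 1.15, 1.18 and 1.12 on the DMH arrays. The group without tumors stood above the other 6 arrays, and the group with tumors overlapped the DMH arrays. Dusp1 rose without tumors by 1.16 ± 0.20 against DMH (SE, log2; 95% interval 0.71 to 1.62; fold 2.24; adjusted p = 0.00576, limma). With tumors the difference from DMH was 0.22 ± 0.20 (SE, log2; 95% interval -0.24 to 0.67; adjusted p = 0.488, limma).

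Set directly against each other, the butyrate groups differed in Dusp1, which fell by 0.95 ± 0.20 on the log2 scale with tumors relative to without tumors (SE; adjusted p = 0.0242, limma), to 1.37 ± 0.31 with tumors against 2.32 ± 0.22 without tumors (SD, n = 3 each). It was the 1 gene of the 10 called there, against 13.5% of all features, 6.99% higher and 6.56% lower. Groups that did not overlap were none higher and 1 lower (Dusp1) among the 10 genes, against 16.8% and 16.6% of all features, 33.4% in either direction. Slide moves with this comparison, as all 3 arrays without tumors and 1 with tumors lay on slide 1. No other slide held both butyrate groups, so slide as a fixed block gives the same difference as slide 1 alone. Within slide 1, with 1 array with tumors against 3 without, the difference was -0.63 ± 0.28 (SE, log2; adjusted p = 0.308, limma, the lone array being assumed to vary like the others), and with slide as a fixed block the adjusted p was 0.244. With slide as a random block the call between the butyrate groups held (-0.79 ± 0.21, SE, log2; adjusted p = 0.0495, limma), while that without tumors against DMH ended (adjusted p = 0.0653). Between the butyrate groups 357 of all features were called with the fixed block and 2242 with the random block, against 2976 without a block. Leaving out single arrays ended the call between the butyrate groups for the first (adjusted p = 0.0624) or second (0.0711) array without tumors, the third with tumors (0.0824), and the second (0.052) or the third (0.0522) DMH array. Over all features 1069, 1071, 177, 1008 and 1033 were called there, in that order, against 2976 with all arrays.

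Zfp36 encodes tristetraprolin, which binds AU-rich elements of mRNAs such as that of Fos itself. Its brighter probe ran from 2.37 to 3.11 with tumors, from 2.63 to 2.86 without tumors and from 2.46 to 2.65 on the DMH arrays, with overlap of all groups and a difference of 0.17 ± 0.18 over all butyrate arrays (SE, log2; adjusted p = 0.568, limma). Its dimmer probe was not well above background on the first array without tumors and the first DMH array. It read -3.35, -2.32 and -1.78 with tumors, -5.85, -4.71 and -4.32 without tumors, and -7.52, -4.43 and -4.73 on the DMH arrays, and differed by 3.08 ± 0.82 between the arrays with tumors and DMH (SE, log2; adjusted p = 0.0609, limma). The arrays with tumors were above the other 6 by this probe and not by the brighter one.

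**Figure D3:**
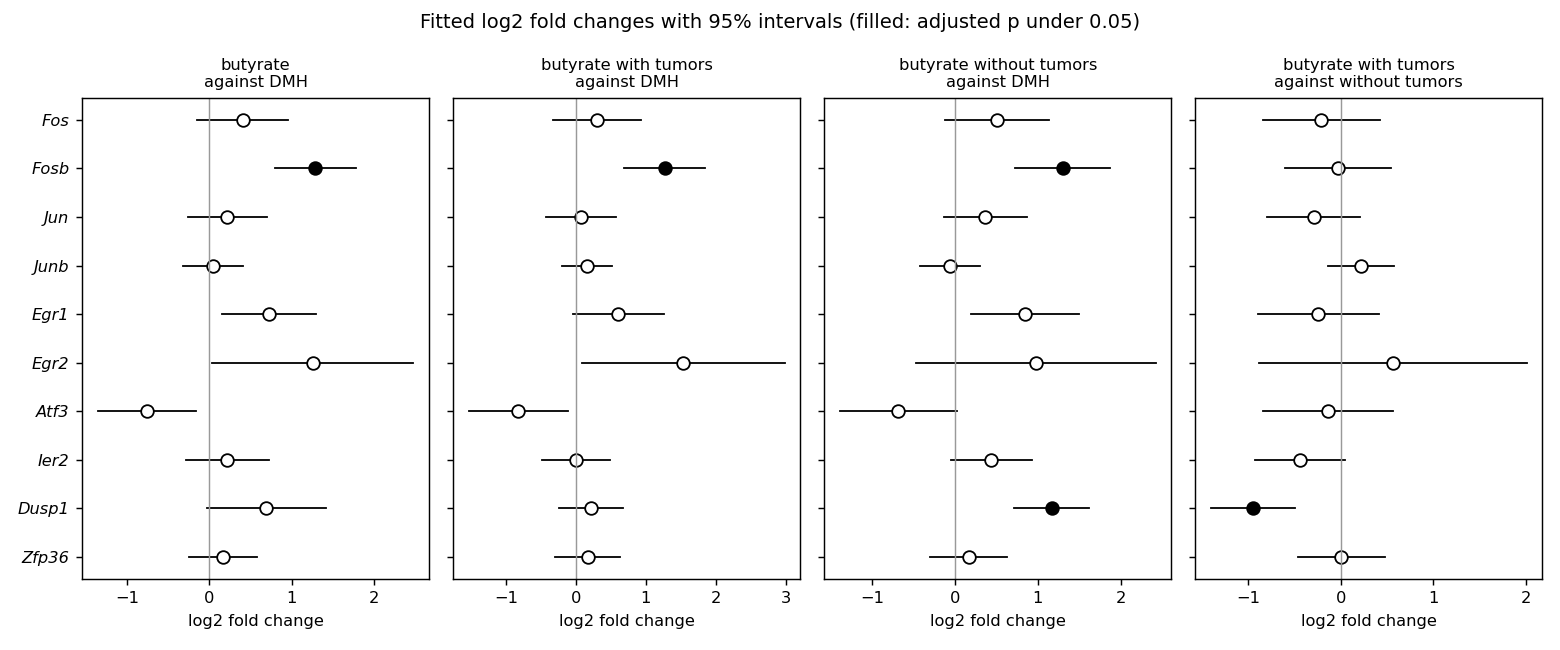
Fitted log2 fold changes of the 10 genes in 4 comparisons, each with its 95% interval, filled where the adjusted p is under 0.05. Fosb is called in the 3 comparisons against DMH and Dusp1 in 2; without scaling between arrays no member is called, and in butyrate against DMH 7 genes (all but Fosb, Egr2 and Atf3) turn from positive to negative.

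Array by array, the genes did not move as a block. Against the DMH mean, the median of the 10 genes was 0.52, -0.08 and 0.19 with tumors, 0.45, 0.50 and 0.64 without tumors, and 0.01, 0.04 and -0.04 on the DMH arrays. Of the 10 genes, 8, 4 and 8 lay above all DMH arrays on the 3 arrays with tumors, and 7, 8 and 6 on the 3 without, against 44.2% to 48.1% of all features on the 6 arrays. Below all DMH arrays lay 1, 5 and 2 with tumors, and 2, 2 and 2 without, against 35.1% to 40.3% of all features. The median near 0 on the second array with tumors thus stands for 4 genes above and 5 below the DMH range. On the first array with tumors 8 genes were higher than on the other 2 of its group and Atf3 was lower, a relation that 42.0% and 42.9% of all features show. Without that array Egr1, Egr2, Atf3 and Ier2 were also called between the group without tumors and DMH (adjusted p = 0.0177, 0.0066, 0.0436 and 0.03, limma), with the same differences and a smaller shared spread, and Ier2 was lower by 0.66 with tumors than without (adjusted p = 0.0156, limma). Calls also rose over all 21964 features, from 6694 to 9941 without tumors against DMH and from 2976 to 7774 between the butyrate groups. The median SD of the 10 genes was 0.38 with tumors, 0.23 without tumors and 0.09 on the DMH arrays, against 0.38, 0.27 and 0.12 over all features.

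Other genes of the same response were taken from a list of 39, of which 36 passed the filter. Over all butyrate arrays 1 was called higher and 3 lower, against 5.85% and 3.35% of all features. The median log2 fold change of the 36 was -0.18. Klf4, an epithelial differentiation factor, fell by 0.70 ± 0.15 (SE, log2; adjusted p = 0.0316), and Nr4a2, an orphan nuclear receptor, fell by 0.97 ± 0.21 (SE, log2; adjusted p = 0.0317). Sik1, a salt-inducible kinase that is itself a CREB target, rose by 0.66 ± 0.16 (SE, log2; adjusted p = 0.0377, limma). The same 3 genes were called with tumors, in the same directions, at -0.79 for Klf4, -1.08 for Nr4a2 and 0.69 for Sik1. Of all features 5.70% were called with tumors.

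Without tumors 5 of these 36 were called higher and 6 lower, where the shares of all features were 16.6% and 13.8%. Per1, a clock gene with a CREB response, rose by 1.15 ± 0.15 (SE, log2; adjusted p = 0.00242). Ppp1r15a, the stress-induced partner of protein phosphatase 1, fell by 1.50 ± 0.24, and Ier3, an early survival gene, fell by 2.04 ± 0.36 (SE, log2; adjusted p = 0.00484 and 0.00678, limma). With tumors relative to without tumors, 2 were called higher and 2 lower, against 6.99% and 6.56% of all features. There Socs3, an inhibitor of cytokine receptors, was higher by 1.48 ± 0.18 and Ier3 by 1.50 ± 0.36, while Per1 fell by 0.64 ± 0.15 (SE, log2; adjusted p = 0.0118, 0.0361 and 0.0341, limma).

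Partners of the members are set beside all features. Of these, 9.20% were called over all butyrate arrays, 5.70% with tumors and 30.5% without tumors. Of 12 measured AP-1 and ATF subunits none was called over all butyrate arrays or with tumors, with 0 at an unadjusted p under 0.05 in each, and 1 without tumors, Maff, a small MAF protein also on the list of other immediate early genes, which rose by 0.71 ± 0.23 (SE, log2; adjusted p = 0.0458, limma). Of 25 measured kinases and factors that induce these genes, none was called higher and 1 lower over all butyrate arrays, Hras, a RAS protein, which fell by 0.81 ± 0.18 (SE, log2; adjusted p = 0.0344, limma). Without tumors 7 were called higher and 1 lower, against 16.6% and 13.8% of all features. Braf, a kinase that activates MEK, rose there by 1.11 ± 0.17, and Mapk9, which encodes a JNK, by 0.90 ± 0.21 (SE, log2; adjusted p = 0.00381 and 0.0163, limma).

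Between the butyrate groups 1 kinase gene was called higher with tumors and 3 lower, against 6.99% and 6.56% of all features. Rps6ka5, which encodes a kinase of CREB and of histone H3 at immediate early genes, was higher with tumors by 1.12 ± 0.18 (SE, log2; adjusted p = 0.0147), and also by 1.16 ± 0.18 against DMH (SE, log2; adjusted p = 0.0263, limma). Among 15 measured phosphatases and mRNA decay factors none was called over all butyrate arrays or with tumors (6 and 4 at an unadjusted p under 0.05, limma). Without tumors 3 were called higher and 2 lower, against 16.6% and 13.8% of all features. Dusp3, a relative of Dusp1, fell by 1.98 ± 0.29 without tumors against DMH (SE, log2; adjusted p = 0.00329), and was higher by 1.25 ± 0.29 with tumors than without (SE, log2; adjusted p = 0.0305, limma). Dusp1 and Dusp3 thus ran in opposite directions in both comparisons.

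Genes known to answer to tissue handling, and markers of the cell types of the gut wall, were measured beside the members. Their counts stand against these shares of all features. Over all butyrate arrays 5.85% were called higher and 3.35% lower, with tumors 3.44% and 2.26%, and without tumors 16.6% and 13.8%. With tumors relative to without tumors the shares were 6.99% and 6.56%. Of 13 heat shock genes 1 was called lower and none higher over all butyrate arrays (Hspa1b, at -1.36 ± 0.31 log2, SE; adjusted p = 0.0341, limma). Without tumors 1 was called higher and 4 lower, among them the chaperones Hspa8, which fell by 3.28 ± 0.65, and Hsp90aa1, which fell by 1.57 ± 0.33 (SE, log2; adjusted p = 0.0092 and 0.0117, limma). With tumors none was called (3 at an unadjusted p under 0.05, limma), and with tumors relative to without tumors 1 was called higher. Array medians of the heat shock list relative to the DMH mean were -0.17, -0.24 and -0.31 with tumors, -0.33, -0.49 and -0.09 without tumors, and 0.04, -0.06 and 0.00 on the DMH arrays. Of 13 hypoxia genes none was called over all butyrate arrays or with tumors (2 and 3 at an unadjusted p under 0.05, limma), while 4 were called higher and 1 lower without tumors. Bnip3, a mitophagy gene, rose there by 1.30 ± 0.19 and Pdk1, a pyruvate dehydrogenase kinase, by 1.16 ± 0.22 (SE, log2; adjusted p = 0.0038 and 0.00764, limma). The hypoxia list's medians were -0.04, 0.13 and 0.01 with tumors and 0.66, 0.57 and 0.26 without tumors, the group in which Dusp1 was high. The part of handling in the results was not tested.

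Markers of smooth muscle and of the enteric nervous system, which lie mostly below the mucosa, had medians above the DMH mean on all 6 butyrate arrays. Epithelial markers had medians below it. The lowest muscle and nerve medians on butyrate arrays, 0.37 and 0.19, were under those of the first DMH array, 0.44 and 0.25. All 12 smooth muscle genes had positive fold changes in both butyrate groups, with medians by array of 1.55, 0.89 and 0.71 with tumors, 1.63, 1.71 and 0.37 without tumors, and 0.44, -0.08 and -0.35 on the DMH arrays, and 2 were called higher over all butyrate arrays. Of 14 neuron and glia genes 4 were called higher over all butyrate arrays, with medians by array of 1.72, 0.19 and 1.35 with tumors, 1.96, 1.28 and 0.83 without tumors, and 0.25, -0.10 and -0.09 on the DMH arrays. Only 9 of these 14 were well above background on all 9 arrays. Of 14 epithelial genes 6 were called lower, with medians of -0.97, -0.53 and -0.67 with tumors, -0.75, -1.01 and -0.65 without tumors, and 0.07, -0.02 and -0.06 on the DMH arrays. Of 10 goblet cell genes 6 were called lower. All 14 epithelial and all 12 smooth muscle markers were well above background on every array, so the labelled mucosa held epithelium and muscle RNA throughout. In such bulk RNA fewer cells of a type and less RNA per cell cannot be told apart, and the part of these tissues in the rise of Fosb and Dusp1 was not tested.

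Blood and immune markers moved differently in the butyrate groups. Endothelial medians were 0.30, 0.02 and -0.22 with tumors, 1.098, 0.46 and 0.35 without tumors, and 0.06, -0.08 and 0.02 on the DMH arrays. Macrophage and dendritic cell medians were 0.55, -0.25 and 0.14 with tumors and -0.61, -0.36 and -0.61 without tumors. Of 6 measured neutrophil genes all 6 were called lower without tumors against DMH and 1 with tumors, and 4 were called higher with tumors than without. Only 2 of these 6 were well above background on all 9 arrays. Of the 10 listed, 2, 3 and 3 were so without tumors, 4, 6 and 7 with tumors, and 6 on each DMH array. These calls therefore rest in part on values near background. Of 8 measured fat cell genes none was called over all butyrate arrays, and of 8 fibroblast genes none (3 and 2 at an unadjusted p under 0.05, limma). With tumors 3 fat cell genes were called lower, with a median log2 fold change of -2.80 over the 8, and without tumors 1 was called higher, with a median of -0.84. With tumors relative to without tumors all 8 fat cell genes had negative differences (median -1.79, log2), and 2 were called lower. Of the fibroblast genes 1 was called higher without tumors. Their part in the Dusp1 difference was not tested.

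**Figure D4:**
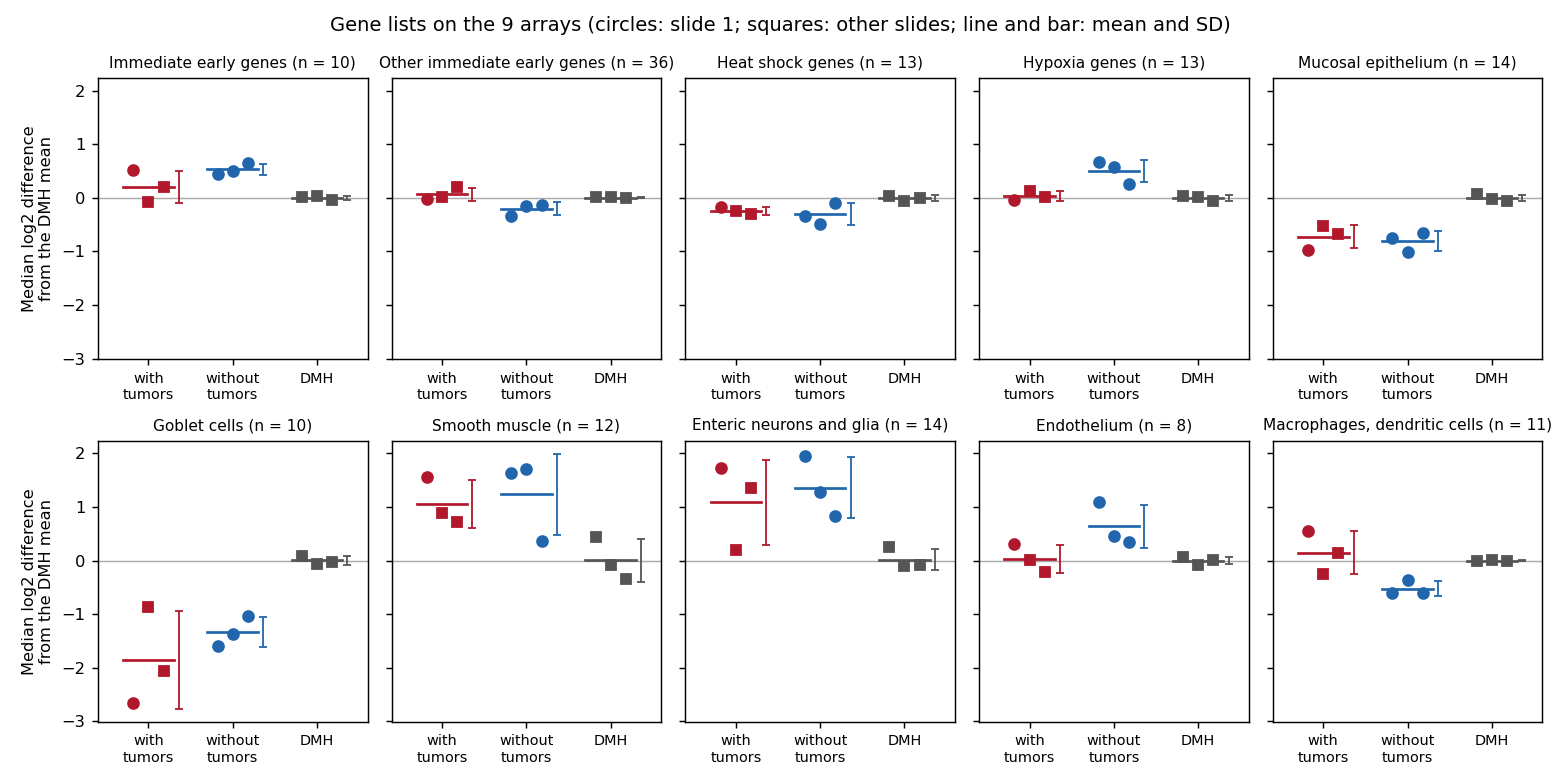
Each point is the median, over the measured genes of a list, of the log2 difference of an array from the DMH mean, with groups along the horizontal axis, circles for slide 1, squares for other slides, and lines and bars for the mean and SD of 3 arrays. On the butyrate arrays the medians run from -0.08 to 0.64 for the immediate early genes, 0.37 to 1.71 for smooth muscle and -1.01 to -0.53 for epithelium, and hypoxia genes are higher without tumors.

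The genes whose profile over the 9 arrays was most like the mean of the 10 members, each centred on its own mean, were sought among 15263 named genes. They were Guca1b with a Pearson r of 0.987, 2310033P09Rik with 0.983, Scg5 with 0.979, Bhlhb9 with 0.977 and Bmi1 with 0.977. After the group means were removed their r was 0.982, 0.964, 0.951, 0.962 and 0.954. The mean profile itself was 0.43, -0.25 and 0.02 with tumors, 0.21, 0.31 and 0.13 without tumors, and -0.27, -0.25 and -0.33 on the DMH arrays. These 9 points share slides, scan days and groups, and the likeness is a description only.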

How the data were processed

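The 9 Agilent 1-colour (Cy3) arrays of total RNA, 3 in each group, were read. The scanner files give, per the file headers, an intensity for each spot after background subtraction and detrending by Feature Extraction 10.5.1.1, not scaled between arrays. The value table deposited by the authors holds log2 values of 21829 probes, which equal log2 of that intensity minus a constant per array (SD of the difference at most 0.00807); the files do not say what that constant is, and the table served as an alternative.

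From each file, 43379 spots of 41174 probes were read, 1639 control spots and outlier spots were left out, spots of a probe were averaged, and log2 intensity was set relative to the array's 75th percentile. No spot was saturated. Probes well above background on at least 3 arrays, with at least 2 values in each group, were kept. Of several probes of a gene the one with the highest mean stood for it. This gave 21964 features, and RefSeq accessions named 15346 of them. limma 3.58.1 in R 4.3.3 was fitted to all features with 2 groups (butyrate against DMH) or 3 groups (the other comparisons), with Benjamini-Hochberg adjustment and a threshold of 0.05. Precision is limited by the number of arrays.

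The members and lists were chosen with earlier results of these data known. Named genes are all members with all their probes, at most 3 called genes of each other list with the smallest adjusted p in a comparison, and the 5 named genes with the most similar profile. The fits were tested on simulated data.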

Additional observations from a re-analysis of the deposited data

Results flagged for a closer look

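Egr2 on the first array with tumors, at a log2 value of 1.12, stood apart from the other 5 butyrate arrays. Its gap to the next array was 2.11 and made up 0.722 of the range of the 6 arrays, above the critical value of Dixon's test for 6 values. The 10 genes were tested this way on the 6 butyrate arrays, and chance marks about 1 gene in 20. That array lay on slide 1 and had the lowest 75th percentile of signal, 188. The part of slide or signal in this value was not tested.

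Dusp1 responded differently in the butyrate groups. Its log2 difference from DMH was lower by 0.95 with tumors than without tumors (-0.95 ± 0.20, SE; adjusted p = 0.0242, limma), and the difference within slide 1 was -0.63 with an adjusted p of 0.308. All 3 arrays with tumors were below all 3 without tumors, as 16.6% of all features were.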

How the results depend on the processing

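Of the members' log2 fold changes recomputed under the alternatives, 824 kept direction and side of the threshold, 30 lost the threshold, 31 passed it and 73 turned. Without scaling, and with slide as a random block, 0 of the 10 genes were called over all butyrate arrays, with tumors or without tumors. Without scaling 0 were called between the butyrate groups too, against 1, 1, 2 and 1 in the settings of the report. At an unadjusted p under 0.05 (limma) these settings held 1, 0, 1 and 0 genes without scaling and 1, 3 and 2 with slide as a random block. Of all 21964 features they called 35, 35, 1550 and 1 without scaling and 17, 4 and 1006 with slide as a random block. With array weights 7 were called over all butyrate arrays, 2 with tumors, 7 without tumors and 2 between the butyrate groups. Of all 21964 features 12108, 5245, 12769 and 7454 were called there, in the same order. With the groups refitted as pairs or as 3 groups in place of 2, the counts were 2 over all butyrate arrays, 0 with tumors, 5 without tumors and 0 between the butyrate groups. Over all features this refit called 5052, 356, 9697 and 0, in the same order. With DMH arrays 2 and 3, which share a slide, averaged, 0 were called over all butyrate arrays and 0 with tumors, where 4 and 4 of all features were called. With no filter on dim probes 0 were called with tumors, and with the authors' values 2. Of all features 190 of 32588 and 1954 of 17044 were called there, against 1252 of 21964 in the settings of the report. Within slide 1, which held 1 array with tumors, the log2 difference between the butyrate groups was -0.63 for Dusp1 and 2.31 for Egr2. With slide as a fixed block Egr2 was called between the butyrate groups and Dusp1 was not. Over all features 357 were called there, against 2976 in the settings of the report. With the second probe of Junb 2 were called over all butyrate arrays, and 2023 of all features. On leaving out each array in turn the counts ran from 0 to 2 over all butyrate arrays, 0 to 1 with tumors, 2 to 6 without tumors and 0 to 2 between the butyrate groups. Over all features the counts then ran from 7 to 3626, 4 to 1792, 2841 to 9941 and 177 to 7774, in the same order.

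The causes of these changes were not tested, apart from the fewer arrays that some settings hold. Deviations of same-numbered arrays from their group means had correlations of -0.01 to 0.26. These cannot decide whether the replicate numbers pair the samples. With the replicate number as a block the counts were 1 over all butyrate arrays, 1 with tumors, 2 without tumors and 1 between the butyrate groups, while calls over all features came to 583, 477, 6866 and 2809. In 9 of 18 cases an array correlated best with its own number in another group. Over all features the calls ran from 4 to 12108 over all butyrate arrays, 4 to 5245 with tumors, 1006 to 12769 without tumors and 0 to 7774 between the butyrate groups. Their split into higher and lower was 1285 and 735 over all butyrate arrays, but 470 and 726 in the authors' values and 823 and 932 with normexp correction and quantile scaling together. With tumors it was 756 and 496, but 435 and 484 with quantile scaling alone, 465 and 720 with both together and 414 and 1540 in the authors' values. Without tumors it was 3656 and 3038, but 3768 and 1842 in the authors' values. Between the butyrate groups it was 1536 and 1440, but 924 and 1457 with quantile scaling alone, 976 and 1752 with both together and 628 and 3740 in the authors' values. The authors' values shift the median of all features by -0.19 with tumors, 0.18 without tumors and -0.37 between the butyrate groups.

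All turned values are log2 fold changes of genes not called in that comparison. Without scaling they were -0.44 for Fos, -0.63 for Jun, -0.80 for Junb, -0.12 for Egr1, -0.63 for Ier2, -0.16 for Dusp1 and -0.68 for Zfp36 over all butyrate arrays. With tumors against DMH they were -0.31 for Fos, -0.54 for Jun, -0.46 for Junb, -0.0077 for Egr1, -0.61 for Ier2, -0.40 for Dusp1 and -0.44 for Zfp36. Without tumors against DMH they were -0.57 for Fos, -0.71 for Jun, -0.23 for Egr1, -0.11 for Egr2, -0.64 for Ier2 and -0.92 for Zfp36. Between the butyrate groups they were 0.26 for Fos, 0.44 for Fosb, 0.18 for Jun, 0.23 for Egr1, 0.33 for Atf3 and 0.032 for Ier2. In the authors' values the turned values were -0.10 for Jun, -0.022 for Junb, -0.17 for Ier2 and -0.0068 for Zfp36 with tumors against DMH, 0.054 for Junb without tumors against DMH and -0.076 for Junb and -0.28 for Zfp36 between the butyrate groups. With array weights values were -0.064 for Junb over all butyrate arrays, -0.15 for Ier2 with tumors against DMH and -0.19 for Egr2, 0.11 for Atf3 and -0.071 for Zfp36 between the butyrate groups. With quantile scaling the value was 0.0083 for Junb without tumors against DMH. With normexp correction and quantile scaling together values were -0.0083 for Ier2 with tumors against DMH, -0.11 for Zfp36 without tumors against DMH and 0.017 for Fosb between the butyrate groups. With the mean of all probes of a gene the value was 0.53 for Junb without tumors against DMH. With the second probe of Junb values were 1.11 for Junb without tumors against DMH and -0.19 for Junb between the butyrate groups. With slide as a random block values were 0.21 for Fosb and 0.029 for Egr1 between the butyrate groups. With slide as a fixed block values were 0.44 for Fosb, 0.29 for Egr1 and 0.0065 for Ier2 between the butyrate groups. Within slide 1 values were 0.44 for Fosb, 0.29 for Egr1 and 0.0065 for Ier2 between the butyrate groups. Without slide 1 values were -0.22 for Ier2 and -0.023 for Zfp36 over all butyrate arrays and -0.22 for Ier2 and -0.023 for Zfp36 with tumors against DMH. With DMH arrays 2 and 3 averaged the value was -0.028 for Ier2 with tumors against DMH. On leaving out each array in turn, the values that crossed 0 ran from -0.015 to 0.081 for Junb over all butyrate arrays, -0.22 to 0.14 for Ier2 with tumors against DMH, -0.023 to 0.35 for Zfp36 with tumors against DMH, -0.033 to 0.16 for Jun with tumors against DMH and -0.27 to 0.19 for Fosb between the butyrate groups. The others ran from -0.40 to 0.16 for Atf3 between the butyrate groups, -0.18 to 0.19 for Zfp36 between the butyrate groups, -0.53 to 0.038 for Fos between the butyrate groups and -0.31 to 1.15 for Egr2 between the butyrate groups.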
